A study of Marchantia polymorpha with 9 samples.

Results

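The MpBHLH12ox#3 line of the liverwort Marchantia polymorpha, which overexpresses the transcription factor gene MpBHLH12, was compared with its wild-type parent Tak-1, with particular attention to genes that differed from Tak-1 in this line and hardly in the second line, MpBHLH12ox#2. RNA-Seq had been carried out on Tak-1, MpBHLH12ox#2 and MpBHLH12ox#3, with 3 replicates per group by the labels, which call the transgene MpGL3. Each sample held 9 thallus pieces from 3-week-old plants. The deposited table gives 1 average FPKM (fragments per kilobase of transcript and per number of mapped fragments, scaled to a standard depth) per group for 19287 genes, so that the spread between replicates and the depth behind a value are unknown, and no difference below was tested.

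All groups are of the Tak-1 background, a male wild-type strain, and were grown under continuous light on Gamborg's B5 medium without other agents. Tak-1 carries no transgene. In both overexpressors, the constitutive 35S promoter drives MpBHLH12 fused to Citrine, a yellow fluorescent protein, and each line descends from 1 independent Agrobacterium transformant, so that an effect of the insertion site in 1 line and an effect of the transgene cannot be told apart within that line. No marker genes of thallus tissue are named in the sources used here, and the tissue label was not checked further.

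A gene was called higher or lower in MpBHLH12ox#3 when log2((FPKM + 1)/(Tak-1 FPKM + 1)) was 1 or more in size, counting the 13269 genes whose average was at least 1 FPKM in Tak-1 or in this line. Of these, 44 genes had a change of 1 or more in size in MpBHLH12ox#3 and under 0.5 in size in MpBHLH12ox#2, which is 0.332% of the genes compared and 44 of the 19287 genes in the table. They are called line 3-set genes below, a name for these size limits that does not state a tested difference between the lines. They were chosen by the averages themselves, and both lines are compared with the same Tak-1 average. Their values are therefore a description.

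IIIf basic helix-loop-helix (bHLH) proteins are plant transcription factors that bind DNA as dimers. In Arabidopsis thaliana, members of this clade such as GL3, EGL3 and TT8 act in complexes with R2R3-MYB and WD40-repeat proteins, which control anthocyanin and proanthocyanidin synthesis and the fate of epidermal cells that form trichomes and root hairs. Liverworts have a flat thallus, reproduce vegetatively from gemmae made in gemma cups, and accumulate flavonoids and other phenolic compounds made through the shikimate and phenylpropanoid pathways.

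MpBHLH12 (Mapoly0031s0161) was measured at 20.3 FPKM in Tak-1 against 547.6 and 474.6 FPKM in MpBHLH12ox#2 and MpBHLH12ox#3. Its level in MpBHLH12ox#3 was 23.4-fold that in Tak-1, a log2 change of 4.48, against 4.69 in MpBHLH12ox#2. Both overexpressor labels thus fitted the overexpressed gene, and transcripts of the native gene and of the transgene cannot be told apart in these values. The elongation factor gene EF1α (Mapoly0024s0116), used as a qRT-PCR standard, stood at 3564.5 FPKM in Tak-1 and 3955.6 FPKM in MpBHLH12ox#3, a log2 change of 0.15.

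Across the transcriptome, most genes of MpBHLH12ox#3 lay close to their Tak-1 level. The median log2 change was 0.0034, and 84.1% of the 13269 genes changed by under 0.5 in size. A total of 611 genes (4.6%) reached a size of 1, of which 369 (2.78%) were higher and 242 (1.82%) were lower. For the higher genes, the Tak-1 median was 4.36 FPKM, against 14.1 FPKM in MpBHLH12ox#3. The lower genes stood at 15.4 FPKM for the median gene in Tak-1 and 4.57 FPKM in MpBHLH12ox#3. The direction of both differences follows from the choice of these genes by their change between the same averages. In whole tissue, fewer cells of a type and less RNA per cell cannot be told apart. Changes of 2 or more in size were found in 48 higher and 44 lower genes. For MpBHLH12ox#2, 560 of 13219 genes (4.24%) reached a size of 1, with 286 higher and 274 lower.

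**Figure D1:**
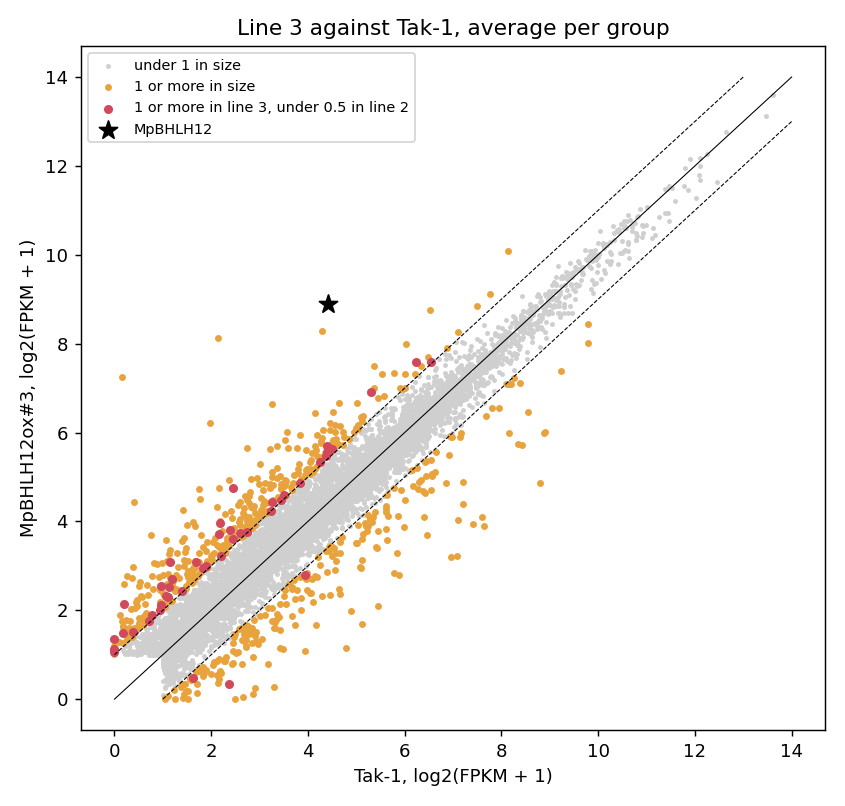
Average FPKM of each gene in Tak-1 (x axis) and MpBHLH12ox#3 (y axis), both as log2(FPKM + 1), with 1 point per gene for the 13269 genes compared. The solid line marks equal levels and the dashed lines a log2 change of 1. The 369 genes above the upper dashed line outnumber the 242 below the lower one, and the 44 line 3-set genes (red) sit mostly near the upper line.

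The largest difference in MpBHLH12ox#3 was in Mapoly0035s0093, which was at 0.113 FPKM in Tak-1 and 151.3 FPKM in this line, a log2 change of 7.10. Mapoly0016s0173 was at 3.43 FPKM in Tak-1 and 280.1 FPKM in MpBHLH12ox#3 (5.99). In both genes the value was higher still in MpBHLH12ox#2, at 364.4 and 477.7 FPKM. MpBHLH12 itself came next. Mapoly0041s0039 (2.94 FPKM in Tak-1 against 75.3 and 73.6 FPKM in MpBHLH12ox#2 and MpBHLH12ox#3, a log2 change of 4.24 in the latter) and Mapoly0015s0172 (0.316, 39.8 and 20.5 FPKM, 4.03) completed the 5 largest increases. Next in order, and named after its values were seen, Mapoly0118s0026 was the first gene of the ranking that was clearly higher in MpBHLH12ox#3 than in MpBHLH12ox#2, with 18.5 FPKM in Tak-1 against 130.5 and 309.1 FPKM in MpBHLH12ox#2 and MpBHLH12ox#3.

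The 5 largest decreases were in genes that Tak-1 expressed at 26.6 FPKM or more. Mapoly0024s0073 was at 443.8 FPKM in Tak-1 and 28.1 FPKM in MpBHLH12ox#3 (log2 change -3.93). The consecutively numbered Mapoly0121s0006 and Mapoly0121s0007 were at 133.5 and 197.8 FPKM in Tak-1 and at 8.32 and 14.0 FPKM in MpBHLH12ox#3 (-3.85 and -3.73). Mapoly0088s0052 was at 123.3 FPKM in Tak-1 against 11.6 and 8.15 FPKM in MpBHLH12ox#2 and MpBHLH12ox#3 (-3.76). The fifth gene, Mapoly0047s0001, belongs to the UDP-glucosyl transferases, enzymes that attach sugars to small molecules, and was at 26.6 FPKM in Tak-1 and 1.22 FPKM in MpBHLH12ox#3 (-3.63).

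Of the 44 line 3-set genes, 41 were higher than in Tak-1 (0.309% of the genes compared) and 3 were lower (0.0226%). They made up 11.1% of all genes higher in MpBHLH12ox#3 and 1.24% of all genes lower in it. The same limits with the lines exchanged gave 29 genes in MpBHLH12ox#2 (0.219%), of which 19 were higher and 10 lower. The 41 higher genes ranged from 0 to 92.1 FPKM in Tak-1 (median 3.49), from 0 to 114.5 in MpBHLH12ox#2 (median 3.95) and from 1.10 to 189.9 in MpBHLH12ox#3 (median 8.27). Their differences were modest, since 40 of the 41 had a log2 change between 1 and 2 in MpBHLH12ox#3 and 25 had one under 1.2. In MpBHLH12ox#3 their log2 changes had a median of 1.16, and in MpBHLH12ox#2 they had a median of 0.26 and ranged from -0.25 to 0.48.

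**Figure D2:**
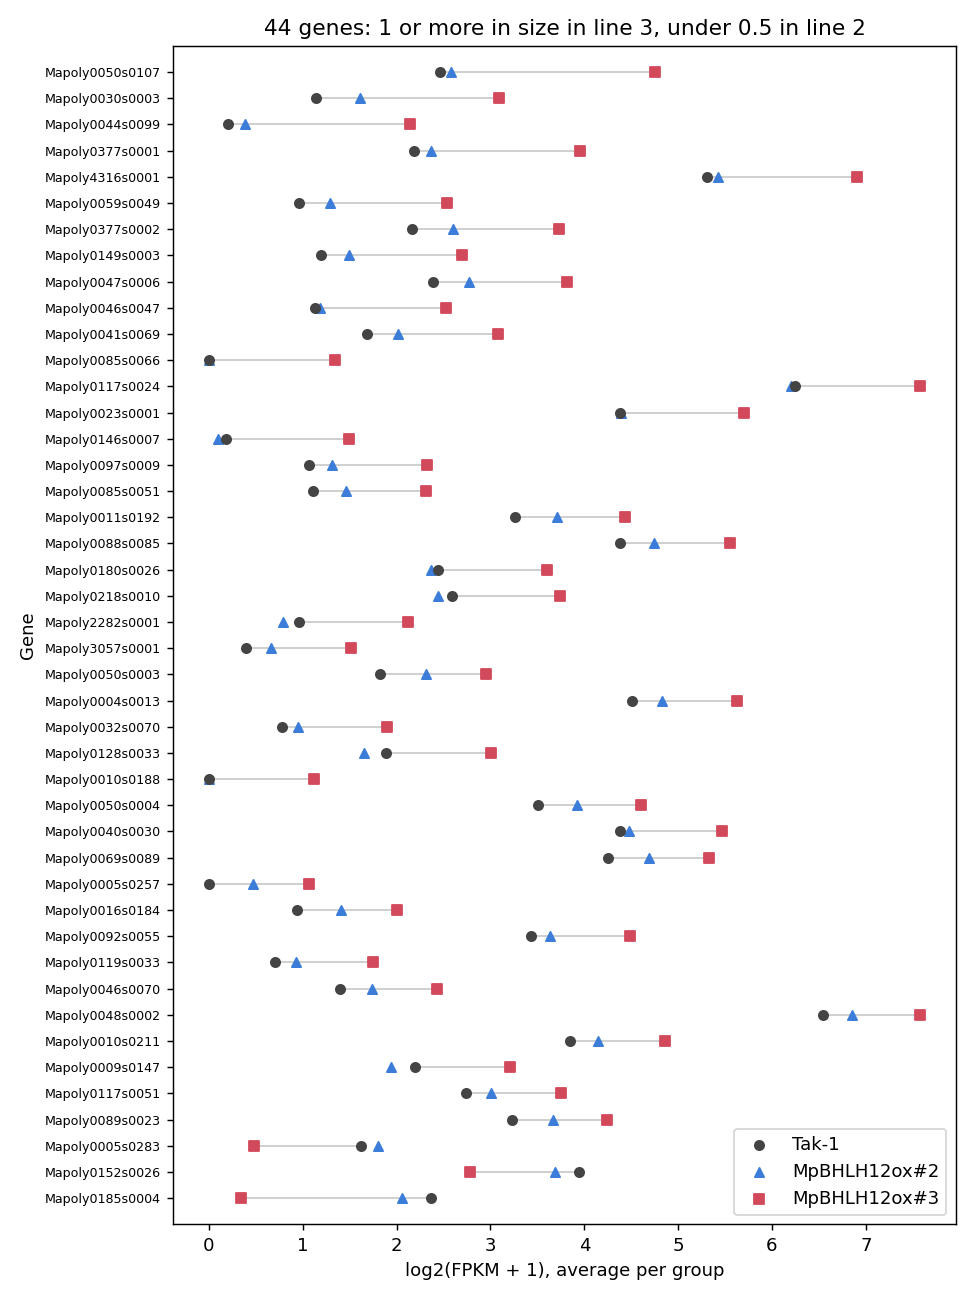
Average level of each of the 44 line 3-set genes (y axis) in Tak-1 (circles), MpBHLH12ox#2 (triangles) and MpBHLH12ox#3 (squares), as log2(FPKM + 1) on the x axis. Each mark is 1 deposited average without an error, and the grey bar joins Tak-1 and MpBHLH12ox#3. The square lies to the right in 41 genes and to the left in the 3 genes at the bottom.

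The largest difference among them was in Mapoly0050s0107, at 4.49 FPKM in Tak-1 against 4.99 and 26.1 FPKM in MpBHLH12ox#2 and MpBHLH12ox#3, a log2 change of 2.30 in the latter and 0.13 in the former. It was the only line 3-set gene higher by 2 or more. The genes numbered within 3 of it on its scaffold showed no such difference, for example its neighbours Mapoly0050s0106 (11.8 FPKM in Tak-1 and 13.7 in MpBHLH12ox#3) and Mapoly0050s0108 (17.9 and 15.7 FPKM). Mapoly0030s0003 was at 1.20 FPKM in Tak-1 against 2.04 and 7.51 FPKM in MpBHLH12ox#2 and MpBHLH12ox#3 (1.95). Mapoly0044s0099 was at low levels in Tak-1 and MpBHLH12ox#2 (0.154 and 0.305 FPKM) and reached 3.41 FPKM in MpBHLH12ox#3 (1.94).

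Mapoly0377s0001 and Mapoly0377s0002 are the only genes listed for their scaffold, and both met these limits. Mapoly0377s0001 was at 3.54, 4.17 and 14.5 FPKM in Tak-1, MpBHLH12ox#2 and MpBHLH12ox#3, and Mapoly0377s0002 was at 3.49, 5.07 and 12.2 FPKM, with log2 changes of 1.77 and 1.56 in MpBHLH12ox#3. Mapoly4316s0001, which is the only gene listed for its scaffold, combined a large difference with a high level, at 38.5, 41.9 and 118.7 FPKM (1.60). The remaining 4 of the 10 largest increases were Mapoly0059s0049 (0.942, 1.44 and 4.82 FPKM, 1.58), Mapoly0149s0003 (1.29, 1.81 and 5.50 FPKM, 1.50), Mapoly0047s0006 (4.21, 5.83 and 13.1 FPKM, 1.43) and Mapoly0046s0047 (1.18, 1.27 and 4.76 FPKM, 1.40). In each of these, MpBHLH12ox#3 was also 1 or more above MpBHLH12ox#2 on the log2 scale.

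The highest levels were those of Mapoly0117s0024 and Mapoly0048s0002, both at 189.9 FPKM in MpBHLH12ox#3. Mapoly0117s0024 was at 74.8 FPKM in Tak-1 and 72.9 in MpBHLH12ox#2 (log2 change 1.33 in MpBHLH12ox#3), so that MpBHLH12ox#2 and Tak-1 stood together and MpBHLH12ox#3 apart. Mapoly0048s0002 was at 92.1 FPKM in Tak-1 and 114.5 in MpBHLH12ox#2 (1.04), with MpBHLH12ox#2 between the others. Mapoly0023s0001, the first gene of its scaffold, stood at 19.9 FPKM in both Tak-1 and MpBHLH12ox#2 and at 51.2 FPKM in MpBHLH12ox#3 (1.32). Mapoly0004s0013 was at 21.7, 27.4 and 48.6 FPKM (1.12). It was the only line 3-set gene with a function in the annotation rows held here, which cover 10.02% of the table, and encodes a protein with a stress responsive A/B barrel domain. The other gene annotated with this domain in these rows, Mapoly0004s0243, was at 38.5 FPKM in Tak-1 against 46.1 and 44.0 FPKM in MpBHLH12ox#2 and MpBHLH12ox#3 (0.19).

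Only 3 line 3-set genes were lower. Mapoly0185s0004 was at 4.17 FPKM in Tak-1 against 3.16 and 0.265 FPKM in MpBHLH12ox#2 and MpBHLH12ox#3, a log2 change of -2.03. Mapoly0152s0026 was at 14.3, 11.9 and 5.90 FPKM (-1.15). Mapoly0005s0283 was at 2.08, 2.50 and 0.392 FPKM (-1.14), with its MpBHLH12ox#2 value on the other side of Tak-1.

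At the limits of the definition, genes inside and outside differed little. Mapoly0089s0023, Mapoly0117s0051 and Mapoly0009s0147 were the last to be included, with log2 changes of 1.01, 1.01 and 1.02 in MpBHLH12ox#3. Mapoly0031s0022, Mapoly0055s0028 and Mapoly0128s0035 were just under the limit, at 0.99, 0.98 and 0.98. On the limit for MpBHLH12ox#2, Mapoly0050s0003 (0.48), Mapoly0005s0257 (0.47) and Mapoly0030s0003 (0.47) were included. Mapoly0069s0092, Mapoly0047s0007 and Mapoly0116s0036, with 0.51, 0.51 and 0.52 in MpBHLH12ox#2, were not. Mapoly0116s0036 was at 278.7 FPKM in Tak-1 against 399.1 and 1086 FPKM in MpBHLH12ox#2 and MpBHLH12ox#3 (1.96), and Mapoly0069s0092 was at 23.9, 34.4 and 100.5 FPKM (2.03). On the lower side, Mapoly0127s0032, Mapoly0119s0009 and Mapoly0008s0198 missed the limit at -0.98, -0.98 and -0.97 in MpBHLH12ox#3, and Mapoly0035s0082, Mapoly0096s0069 and Mapoly0046s0058 were left out with -0.51, -0.53 and -0.53 in MpBHLH12ox#2.

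Many line 3-set genes had low levels. Of the 44, 17 stayed under 5 FPKM in all groups and 31 stayed under 20 FPKM. Of the 41 higher genes, 11 were under 1 FPKM in Tak-1, and 3 of them are listed at 0 there, namely Mapoly0085s0066 (1.54 FPKM in MpBHLH12ox#3), Mapoly0010s0188 (1.17) and Mapoly0005s0257 (1.10). The former pair are also listed at 0 in MpBHLH12ox#2. Grouped by the higher of the Tak-1 and MpBHLH12ox#3 values, line 3-set genes were 0.648% of the 2625 genes between 1 and 5 FPKM, 0.266% of the 5265 genes between 5 and 20 FPKM, 0.230% of the 4352 genes between 20 and 100 FPKM and 0.292% of the 1027 genes from 100 FPKM upward. The part of sampling noise at low levels in this was not tested. All genes that reached a size of 1 in MpBHLH12ox#3 were spread more evenly over these classes, with 4.95%, 4.24%, 4.50% and 6.04%.

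The 44 genes also differed in how far MpBHLH12ox#3 was from MpBHLH12ox#2, by 0.58 to 2.18 in size on the log2 scale. In 24 of them this distance was 1 or more, of which 22 were higher than in both other groups and 2 were lower. The corresponding count of genes with MpBHLH12ox#2 apart from both others was 14 (10 higher and 4 lower), and that with Tak-1 apart from both lines was 354 (177 higher and 177 lower in Tak-1). The genes setting MpBHLH12ox#3 apart were thus few beside those setting Tak-1 apart.

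The identifiers give a scaffold of the genome assembly and a gene number along it, which places genes relative to each other. The positions below were examined after the values had been seen. The 44 line 3-set genes lay on 36 scaffolds. There were 2 pairs with consecutive numbers, Mapoly0377s0001 with Mapoly0377s0002 and Mapoly0050s0003 with Mapoly0050s0004, the latter at 2.54 and 10.4 FPKM in Tak-1 and 6.73 and 23.3 FPKM in MpBHLH12ox#3. Outside the set, 152 expressed genes lay within 3 numbers of a line 3-set gene. Of these, 15 (9.87%) reached a size of 1 in MpBHLH12ox#3, of which 13 were higher, beside 4.6% of all genes. The share near the other genes that reached this size was not computed. Mapoly0030s0003 was one with neighbours at this size, as Mapoly0030s0001 (0.252 FPKM in Tak-1 and 2.39 in MpBHLH12ox#3), Mapoly0030s0004 (24.2 and 70.2 FPKM) and Mapoly0030s0005 (1.05 and 4.04 FPKM) were higher by 1.44, 1.50 and 1.30. In MpBHLH12ox#2 the same neighbours were higher by 1.33, 0.54 and 0.76.

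Over all genes, some of those that reached a size of 1 had consecutive numbers. Of 9387 pairs of expressed genes with consecutive numbers, both genes reached a size of 1 in MpBHLH12ox#3 in 108 pairs, of which 63 were both higher, 35 both lower and 10 opposite. A total of 176 of the 611 genes (28.8%) belonged to such a pair. Of all genes, 4.6% reached this size, and how many pairs this share alone would give was not computed. There were 7 runs of 4 or more consecutive genes in 1 direction, 5 of them higher and 2 lower.

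The runs differed between the lines in size. On scaffold 161, the last 7 of 39 genes, Mapoly0161s0033 to Mapoly0161s0039, were higher by 1.30 to 1.84 in MpBHLH12ox#3 and by 0.73 to 1.14 in MpBHLH12ox#2, whereas the gene before them, Mapoly0161s0032, was at 56.3 FPKM in Tak-1 and 45.4 in MpBHLH12ox#3 (-0.30). The first gene of the run, Mapoly0161s0033, was at 22.7, 51.2 and 71.5 FPKM in Tak-1, MpBHLH12ox#2 and MpBHLH12ox#3. All 6 genes of scaffold 243 were higher, by 1.30 to 1.99 in MpBHLH12ox#3 and 0.53 to 1.14 in MpBHLH12ox#2. The last 4 of 26 genes of scaffold 175 were higher by 1.11 to 1.41 and by 0.56 to 0.81. The median ratio to Tak-1 in these 3 runs was 3.28, 3.21 and 2.25 in MpBHLH12ox#3 and 2.17, 1.99 and 1.67 in MpBHLH12ox#2. Every gene of the 3 runs was highest in MpBHLH12ox#3. All runs were found by a size of 1 in MpBHLH12ox#3, a choice that favours larger changes in this line.

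The line 3-set gene Mapoly0047s0006 lay in a comparable stretch. Mapoly0047s0003, Mapoly0047s0004, Mapoly0047s0007 and Mapoly0047s0008 were also higher by 1 or more, and Mapoly0047s0008 showed the largest difference of these, at 2.06, 3.42 and 14.9 FPKM in Tak-1, MpBHLH12ox#2 and MpBHLH12ox#3 (2.38). The median ratio to Tak-1 over these 5 genes, also chosen by their size in MpBHLH12ox#3, was 2.61 in this line and 1.66 in MpBHLH12ox#2. Mapoly0047s0001, the UDP-glucosyl transferase gene described above, is the first gene of this scaffold and was lower.

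The longest run was lower. Mapoly0027s0165 to Mapoly0027s0172 were 8 genes with 4.71 to 13.5 FPKM in Tak-1, 0.156 to 1.38 FPKM in MpBHLH12ox#2 and 0.917 to 3.03 FPKM in MpBHLH12ox#3. Here MpBHLH12ox#3 was the closer of the lines to Tak-1 in all 8 genes, with log2 changes of -2.27 to -1.003 against -2.83 to -2.12. The level in Tak-1 was 4.46 times that in MpBHLH12ox#3 and 15.9 times that in MpBHLH12ox#2 in the median. The gene after the run, Mapoly0027s0173, was at 5.07 FPKM in Tak-1 and 5.75 FPKM in MpBHLH12ox#3. The gene before the run, Mapoly0027s0164, was also lower but under the size limit in MpBHLH12ox#3 (-0.78). It was at 1.56, 0.0419 and 0.490 FPKM in Tak-1, MpBHLH12ox#2 and MpBHLH12ox#3. The other lower run, Mapoly0121s0006 to Mapoly0121s0010, had near-equal ratios, with Tak-1 at 7.49 times the level of MpBHLH12ox#3 and 7.91 times that of MpBHLH12ox#2 in the median. Likewise, the 5-gene higher runs on scaffolds 10 and 76 had median ratios to Tak-1 of 3.22 and 2.70 in MpBHLH12ox#3 and of 3.22 and 2.46 in MpBHLH12ox#2.

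**Figure D3:**
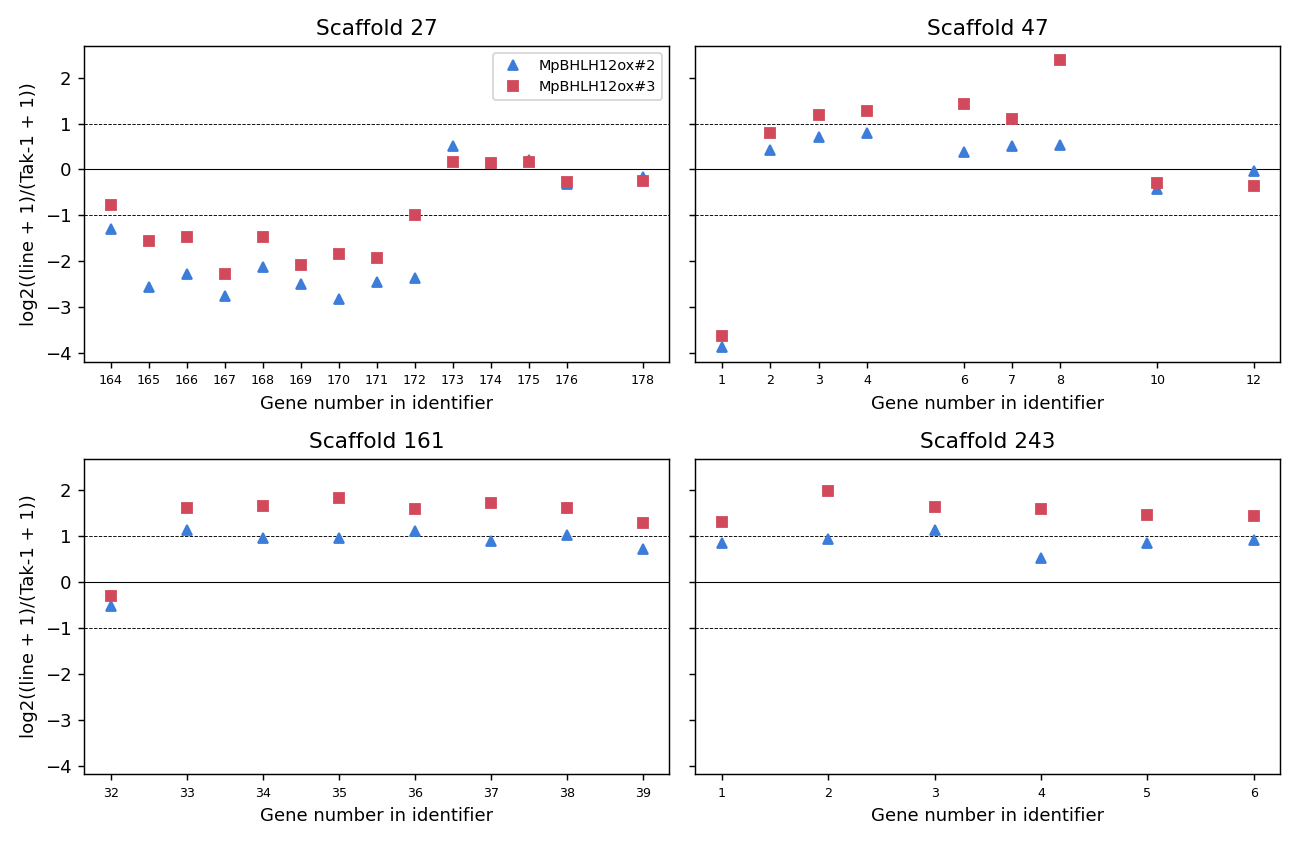
log2 change against Tak-1 (y axis, FPKM + 1) of MpBHLH12ox#2 (triangles) and MpBHLH12ox#3 (squares) by the gene number within the identifier (x axis) on 4 scaffolds, for genes with 1 FPKM or more. Each mark is 1 average without an error, and dashed lines mark a size of 1. MpBHLH12ox#3 lies above MpBHLH12ox#2 along the runs on scaffolds 161 and 243, and nearer to 0 along the 8-gene run on scaffold 27.

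Genes higher in MpBHLH12ox#3 were frequent at the ends of scaffolds. On scaffolds of 20 or more genes, 96 of the 317 higher genes (30.3%) had one of the first 5 or last 5 numbers, beside 1247 of all 12553 genes (9.93%) and 22 of the 224 lower genes (9.82%). For MpBHLH12ox#2 the shares were 60 of 251 higher genes (23.9%) and 25 of 250 lower genes. Without the genes in runs of 4 or more, 82 of 291 higher genes (28.2%) in MpBHLH12ox#3 were at the ends. Of the line 3-set higher genes on such scaffolds, 8 of 35 (22.9%) were at the ends, among them Mapoly0023s0001, Mapoly0048s0002, Mapoly0030s0003 and Mapoly0149s0003. Scaffolds with 5 or fewer genes had 48 of 366 expressed genes (13.1%) at a size of 1 in MpBHLH12ox#3, 36 of them higher. In MpBHLH12ox#2 the share of these genes at this size was 11.7%. Such scaffolds held 2.76% of the expressed genes and 5 of the 44 line 3-set genes (11.4%). The scaffolds come from a draft assembly, and whether the DNA copy number of these stretches, their chromatin or the assembly plays a part was not tested.

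The pathway genes listed by the study for shikimate and phenylpropanoid metabolism lay mostly above Tak-1, in 56 of the 74 with 1 FPKM or more of 82 listed. Of these 74, 12 were higher and 1 was lower by 1 or more in MpBHLH12ox#3, beside 2.78% and 1.82% of all genes. The median change was 0.30, beside 0.0034 for all genes, and 29 were higher by 0.5 or more (9.68% of all genes) and 3 lower (6.17%). None belonged to the line 3 set, which at 0.332% of the genes compared does not set them apart. The study took this list from earlier publications.

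The steps before the branch to flavonoids held 7 shikimate pathway, 6 phenylalanine synthesis, 10 phenylalanine ammonia lyase, 4 hydroxylase and 3 ligase genes. Of these, 1 reached a size of 1, which at 4.6% over all genes does not set these steps apart. Increases of 0.5 or more were found in 2 of 6 phenylalanine synthesis, 5 of 10 phenylalanine ammonia lyase and 2 of 4 hydroxylase genes. Of all genes, 9.68% were higher by this size. The 7 genes of the shikimate pathway, which supplies aromatic amino acids, had a median change of -0.06, and the phenylalanine synthesis genes had one of 0.31. Phenylalanine ammonia lyase, which commits phenylalanine to phenylpropanoids, had 1 gene higher by 1 or more, Mapoly0132s0049, at 53.6 FPKM in Tak-1 against 155.1 and 161.0 FPKM in MpBHLH12ox#2 and MpBHLH12ox#3 (1.57). Its family median was 0.49. The median was 0.51 for the hydroxylases that act on cinnamate and coumarate and 0.22 for the 3 genes of 4-coumaroyl CoA ligase.

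Polyketide and chalcone synthases, which build the flavonoid skeleton and related compounds from CoA esters, held most of the higher genes, with 7 of 19 expressed genes and a median of 0.72. On scaffold 70, 5 of 8 were higher (median 1.16), led by Mapoly0070s0036 at 63.9 FPKM in Tak-1 against 216.3 and 253.6 FPKM in MpBHLH12ox#2 and MpBHLH12ox#3 (1.97). The most abundant of them, Mapoly0070s0062, was at 180.4, 557.1 and 462.5 FPKM (1.35). The others were Mapoly0070s0060 (20.4, 43.1 and 45.5 FPKM, 1.12), Mapoly0070s0063 (88.8, 243.7 and 206.7 FPKM, 1.21) and Mapoly0070s0064 (18.4, 39.8 and 52.9 FPKM, 1.48). Neither line was regularly the higher one in this cluster. Mapoly0072s0054 (15.0, 25.6 and 34.2 FPKM, 1.14) and Mapoly0072s0061 (33.7, 60.3 and 75.6 FPKM, 1.14) were the only pathway genes that reached a size of 1 in MpBHLH12ox#3 and not in MpBHLH12ox#2, where they changed by 0.74 and 0.82. The 4 synthase genes on scaffold 9 had a median change of 0.36 in MpBHLH12ox#3 and 0.02 in MpBHLH12ox#2. As near-identical copies can share reads, the split between neighbouring synthase genes is uncertain.

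After chalcone formation, chalcone isomerase closes the flavanone ring. Neither its gene nor the chalcone isomerase-like gene reached a size of 1 (median 0.03). Nor did any of 4 expressed 2OG-Fe(II) oxygenases (median 0.04, from -0.52 to 0.76). With 4.6% of all genes at this size, such small counts do not set these steps apart. Mapoly0063s0049, a member of the NAD dependent epimerase/dehydratase family, was at 9.89 FPKM in Tak-1 against 28.3 and 25.8 FPKM in MpBHLH12ox#2 and MpBHLH12ox#3 (1.30). Of the UDP-glucosyl transferases, Mapoly0067s0104 (2.17, 6.64 and 6.75 FPKM, 1.29) and Mapoly0099s0001 (10.6, 30.9 and 23.1 FPKM, 1.05) were higher, and Mapoly0047s0001 was the 1 lower pathway gene. The flavonol 3-O-methyltransferase gene Mapoly0129s0005 was at 21.0, 79.2 and 65.1 FPKM (1.59). None of 5 fatty acyl elongation genes reached a size of 1 (median -0.09), which at 4.6% over all genes does not set them apart.

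**Figure D4:**
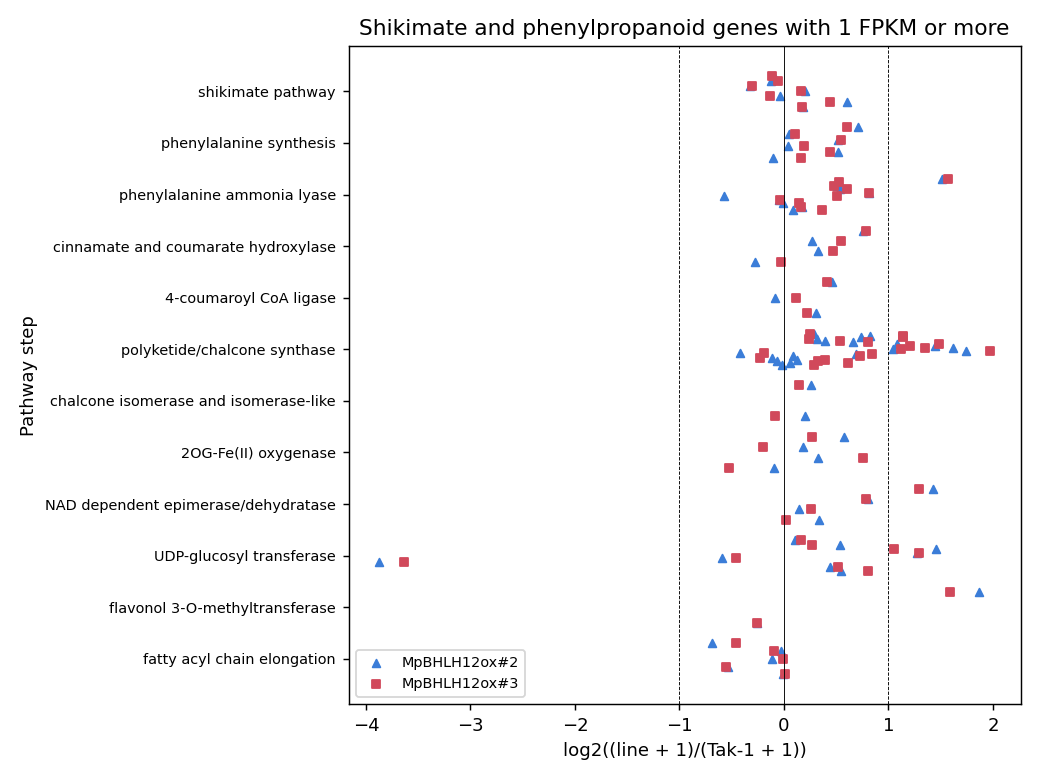
log2 change against Tak-1 (x axis, FPKM + 1) of the 74 expressed shikimate and phenylpropanoid genes by pathway step (y axis), for MpBHLH12ox#2 (triangles) and MpBHLH12ox#3 (squares), with small vertical offsets for legibility. Each mark is 1 gene in 1 average without an error, and dashed lines mark a size of 1. Synthase genes reach furthest to the right, and 1 UDP-glucosyl transferase gene lies at -3.63 in MpBHLH12ox#3.

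Among the 8 expressed genes of 11 other bHLH genes named in the study's phylogeny, Mapoly0013s0167 was higher in MpBHLH12ox#3 (1.42 FPKM in Tak-1 and 4.61 in this line, 1.21) and Mapoly0028s0058 was lower (4.44 and 0.752 FPKM, -1.63), beside 4.6% of all genes at this size. The remaining 6 stayed under a size of 1, including Mapoly0028s0060 at 0.77 and Mapoly0028s0062 at -0.60, which lie near Mapoly0028s0058 on the scaffold. Of the other qRT-PCR targets of the study, Mapoly0041s0025 was at 0.129 FPKM in Tak-1 and 1.39 in MpBHLH12ox#3 (1.08). Mapoly0046s0038 was at 5.61 and 2.18 FPKM (-1.06), Mapoly0001s0298 at 11.2 and 5.07 FPKM (-1.01) and Mapoly0166s0010 at 1.33 and 0.297 FPKM (-0.85). None of the 37 expressed genes with Y chromosome identifiers reached a size of 1 (median -0.04), which at 4.6% over all genes does not set them apart, and all groups are of male background.

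Annotation rows were held for 1933 genes, of which 1288 have a function in them. All lie on the first scaffolds, so that the following counts do not stand for the transcriptome. Of 1464 expressed genes in these rows, 37 (2.53%) reached a size of 1 in MpBHLH12ox#3, with 16 higher and 21 lower. Of these 37, 23 have a function in the rows. The genes named here were picked after their values were seen. Of 4 genes annotated as stress up-regulated Nod 19, 3 have consecutive numbers, of which Mapoly0002s0345 was at 1.19 FPKM in Tak-1 and 8.58 in MpBHLH12ox#3 (2.13), Mapoly0002s0346 at 33.4 and 80.1 FPKM (1.24) and Mapoly0002s0344 at 13.1 and 22.9 FPKM (0.76). The fourth, Mapoly0005s0246, lay below Tak-1, at 33.1 and 25.2 FPKM (-0.38). A D-mannose binding lectin gene, Mapoly0002s0225, had the largest increase in these rows, at 2.39 and 21.6 FPKM (2.74). A sugar efflux transporter gene, Mapoly0003s0269, was at 0.147 and 5.00 FPKM (2.39), and the next gene, Mapoly0003s0270, a mitochondrial carrier, at 8.74 and 21.5 FPKM (1.21).

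Lower annotated genes included 2 of 6 auxin responsive protein genes of 1 family on scaffold 2. Mapoly0002s0081 was at 6.21 FPKM in Tak-1 and 1.41 in MpBHLH12ox#3 (-1.58), and Mapoly0002s0085 was at 9.23 and 2.80 FPKM (-1.43), while Mapoly0002s0082, the most expressed of them, was at 10.9 and 8.61 FPKM (-0.31). Their family median was -0.39. Mapoly0003s0277, annotated as a shikimate O-hydroxycinnamoyltransferase, an enzyme of the lignin branch in seed plants, was at 123.9 and 58.8 FPKM (-1.06). The wider lists were read beside the 2.53% of all expressed genes in these rows, which include genes without a function. Among them, 1 of 9 expressed cytochrome P450 genes was higher and none lower (median 0.39). Of 52 transcription factor genes, 1 was lower and none higher, and 2 of 61 transporter genes were higher and none lower. None of 4 peroxidase, 20 heat shock and protein folding, 29 ribosomal or 5 histone genes reached a size of 1, counts that are too small to set these families apart from that share.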

How the data were processed

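Per the labels, RNA of 3 replicates each of Tak-1, MpBHLH12ox#2 and MpBHLH12ox#3 was read on an Illumina sequencer. The submitters' processing notes name Bowtie2, HTSeq, Cuffdiff 2.2.1 and the JGI 3.1 genome, and the study's methods edgeR. The deposited values are FPKM, averaged by the authors within each group. The sources used here do not say which program made them. Averages allow no test, so the planned limma test was replaced by sizes of log2((FPKM + 1)/(Tak-1 FPKM + 1)) over genes with 1 FPKM or more in Tak-1 or MpBHLH12ox#3. The pseudocount of 1 understates changes of low genes. Other pseudocounts, filters, scalings and size limits were tried as alternatives. Python 3.11.15, numpy 2.4.6, pandas 2.3.3 and matplotlib 3.10.9 were used, and the code was tested on simulated data.

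The line 3-set genes and the lists were chosen with earlier results of these data known. Genes named by rule were MpBHLH12, EF1α, the 5 largest increases and decreases in MpBHLH12ox#3, pathway genes at a size of 1, bHLH and qRT-PCR genes, and, among line 3-set genes, the 10 largest increases, all decreases, the 5 most expressed each way, annotated genes, neighbouring pairs and the 3 genes on each side of each limit. Others were named after their values were seen. Pathway membership and domain names came from the study's supplementary tables. None of the identifiers matched the RefSeq table, and no sequences are shown.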

Additional observations from a re-analysis of the deposited data

How the results depend on the processing

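No paired analysis was possible because replicates were averaged before deposit. For the same reason leaving out replicates could not be run, and depth limits cannot be given. The 41 higher line 3-set genes became 26 among genes with 5 FPKM or more, 20 with a pseudocount of 5, 22 when a size of 1 from MpBHLH12ox#2 was also asked, 19 and 87 with limits of 0.25 and 0.75 for MpBHLH12ox#2, and 1 at a size of 2. These are counts under each setting and not all of the same genes, since 10 of the 44 met the definition with a pseudocount of 5, 35 with 0.1 and 27 at 5 FPKM or more. The 3 lower ones became 1 in the first 2 of these settings and at a size of 2, 22 with the limit of 0.75 and 10 with a pseudocount of 0.1. Of the 44, only 5 met the definition under the pseudocounts of 0.1 and 5, the minimum of 5 FPKM, rescaling to a median of 0 and the added distance from MpBHLH12ox#2: Mapoly0023s0001, Mapoly0050s0107, Mapoly0117s0024, Mapoly0377s0001 and Mapoly4316s0001. With pseudocounts of 0.1 and 5 and sizes of 0.5 and 2, the 369 higher genes became 569, 155, 1285 and 48, and the 242 lower genes 364, 114, 819 and 44. The 24 genes with MpBHLH12ox#3 apart from both others became 14 at 5 FPKM or more, 38 and 7 with these pseudocounts and 1 at a size of 2. MpBHLH12 changed by 4.25 with a pseudocount of 5. The 13 pathway genes became 32 and 1 at sizes of 0.5 and 2. In alternatives added after seeing the data, the share of higher genes at scaffold ends lay between 21.7% (scaffolds of 50 or more genes, beside 7.63% of all genes) and 35.7% (pseudocount of 5). Besides MpBHLH12, 91 genes with 1 FPKM or more were named by rule. A pseudocount cannot change the direction of a difference, so only sizes were compared. The log2 change moved by more than 0.1 in 50 of them with a pseudocount of 0.1 and in 74 with 5. Rescaling, a shift by the median of 0.0034, moved none by that much.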
